A study of Mus musculus with 6 samples.

Results

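Hepatic stellate cells were followed in bulk liver RNA through 9 marker genes, chosen by name from the 54532 Ensembl genes of the count table. The genes were Lrat, Reln, Hgf, Ecm1 and Hhip, which mark the quiescent cell, Des, Dcn and Pdgfrb, which mark the mesenchymal lineage in either state, and Acta2, which marks the activated cell. The choice of names used no measured value, but it was made with earlier results of these data known. The libraries came from the livers of wild-type male C57BL/6J mice. Of these libraries, 3 were from mice given a high-fat diet (HFD) alone. The other 3 were from mice given the same diet with allantoin, the product of uric acid oxidation, in the drinking water (HFD+allantoin). The labels do not say that each library was a separate mouse. By the study's methods the mice went on HFD at 8 weeks of age for 4 weeks, and allantoin was added for another 4 weeks on HFD, where the labels write 4 weeks of age for the start. The labels name 0.06 and 0.3 mg/mL without tying either to a library, and by the study's text the sequenced group was that given 0.3 mg/mL. Every mouse was on HFD, there was no group on normal chow, and nothing in these libraries isolated stellate cells.

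Quiescent stellate cells lie between the hepatocytes and the sinusoidal endothelium and store vitamin A as retinyl esters in lipid droplets. After injury they lose these droplets, take up a contractile form with smooth muscle α-actin and deposit fibrillar collagen, and they are the main source of scar in most chronic liver disease. They also send signals in the resting liver, among them hepatocyte growth factor, and carry the receptor for platelet-derived growth factor. In bulk RNA, fewer cells of a type and less RNA per cell cannot be told apart.

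Library totals ran from 11326372 to 14601457 counts, and 12795 genes were tested. HFD replicate 2 stood apart: Adipoq and Plin1, which mark fat cells, had 520 and 498 counts there and 0 or 1 in each of the other libraries, so results are given with and without it. Reads of the mitochondrial chromosome made up 17.9% to 36.5% of the counts in HFD and 6.92% to 11.4% in HFD+allantoin, and without that chromosome the members' calls and their median log2 fold change, 1.03, were the same. Hepatocyte genes dominated every library, with Alb at 512399 to 1217067 counts, and the 9 members summed to 176 to 298 CPM (depth-scaled counts) in HFD and 375 to 443 CPM in HFD+allantoin. CPM is the count scaled to a common sequencing depth, taken here over library sizes scaled by TMM factors, which correct for differences in composition.

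The members lie on separate chromosomes or far apart. In GRCm38 with GENCODE M21, Lrat (ENSMUSG00000028003) spans chr3:82892579-82903973, Ecm1 (ENSMUSG00000028108) chr3:95734147-95739569, Reln (ENSMUSG00000042453) chr5:21884454-22344702 and Hhip (ENSMUSG00000064325) chr8:79965851-80058006, all on the minus strand. Hgf (ENSMUSG00000028864) spans chr5:16553495-16620152, Des (ENSMUSG00000026208) chr1:75360329-75368579 and Dcn (ENSMUSG00000019929) chr10:97479609-97518143, all on the plus strand. Acta2 (ENSMUSG00000035783) spans chr19:34241090-34255590 on the minus strand. The values are sums over whole genes, and introns or untranslated regions were not counted apart. Annotated genes overlap exons of 5 members, and the counts assigned to those neighbours were 0 except for Gm43489, which shares 484 bases with Hgf and had 0 to 8.

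Promoter windows of 250 bases before to 50 after the start, from RefSeq in GRCm38.p6, matched 7 of the 9 members, all but Dcn and Pdgfrb. The pair below is shown because Lrat and Acta2 carry the opposite ends of the quiescent to activated axis. They are chr3:82903925-82904224 and chr19:34255324-34255623, both on the minus strand and written 5′ to 3′ along the gene. Capitals mark matches on either strand to the serum response factor motif called the CArG box with at most 1 base off, to GGGCGG, the core of Sp1 sites, to GGAATG, the core of TEAD sites, and to TATATAA.
Lrat: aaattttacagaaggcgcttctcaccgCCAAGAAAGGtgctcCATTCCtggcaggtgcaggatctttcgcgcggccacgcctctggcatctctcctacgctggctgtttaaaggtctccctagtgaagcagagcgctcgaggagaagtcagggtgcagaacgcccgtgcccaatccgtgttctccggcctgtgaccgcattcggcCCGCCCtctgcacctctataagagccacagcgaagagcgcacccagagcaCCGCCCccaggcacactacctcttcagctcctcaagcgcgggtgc
Acta2: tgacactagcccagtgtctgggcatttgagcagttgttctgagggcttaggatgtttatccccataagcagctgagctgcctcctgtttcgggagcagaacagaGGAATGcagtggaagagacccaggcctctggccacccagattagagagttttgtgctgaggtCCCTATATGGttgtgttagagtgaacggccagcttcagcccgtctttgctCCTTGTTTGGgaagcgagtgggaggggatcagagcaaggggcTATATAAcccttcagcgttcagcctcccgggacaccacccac
Acta2 held a pair of near matches to the CArG box, starting 84 and 34 bases before the start, and Lrat held 1, starting 223 bases before it. The TATATAA of Acta2 began at base 9 after its RefSeq start. The 5′ end of Acta2 in GENCODE M21, 34255590, lies upstream of that start, so these distances depend on the start used. A near match stood in 21.1% of all 32851 windows and an exact match in 1.63%, with none among the members. GGAATG was found in Acta2 and Lrat and in 14.7% of all windows, GGGCGG in Des, Ecm1, Hhip, Lrat and Reln and in 35.7%, and TATATAA in Acta2 and in 3.24%. TATAAA stood in Ecm1 and in 13.6% of all windows. The hexamer AGGTCA, bound by retinoid and other nuclear receptors, was in no member window and in 16.3% of all windows. These letters describe the windows and were not measured for binding.

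Among the quiescent markers, Hgf, Lrat and Reln rose with allantoin, Hhip was fitted 2.31-fold higher without passing the test, and Ecm1 did not pass it. Of the mesenchymal markers Dcn rose, while Pdgfrb and Des did not pass. Acta2, the activation marker, was lower, and it kept that direction but missed the threshold without HFD replicate 2, without any 1 of the HFD+allantoin libraries and with limma-voom. By edgeR's quasi-likelihood test over all 6 libraries, with an adjusted p under 0.05 as the threshold, 4 of 9 members were called higher and 1 lower, where 11.3% of all tested genes were called higher and 13.0% lower. All 9 members passed the filter on low counts. The members' median log2 fold change was 1.03 and that of all tested genes -0.03. Over the same 12795 genes DESeq2 called 1747 higher and 1966 lower, and limma-voom 1523 and 1596. Scaled by library size only, edgeR called 3162 higher and 674 lower, with a median of 0.38. Counts of the gene lists below are to be set beside these, and not every list is given in every setting. Shares of all genes at an unadjusted p are not given. Counts of list genes or members at an unadjusted p therefore cannot be read as more or fewer than the background.

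**Figure D1:**
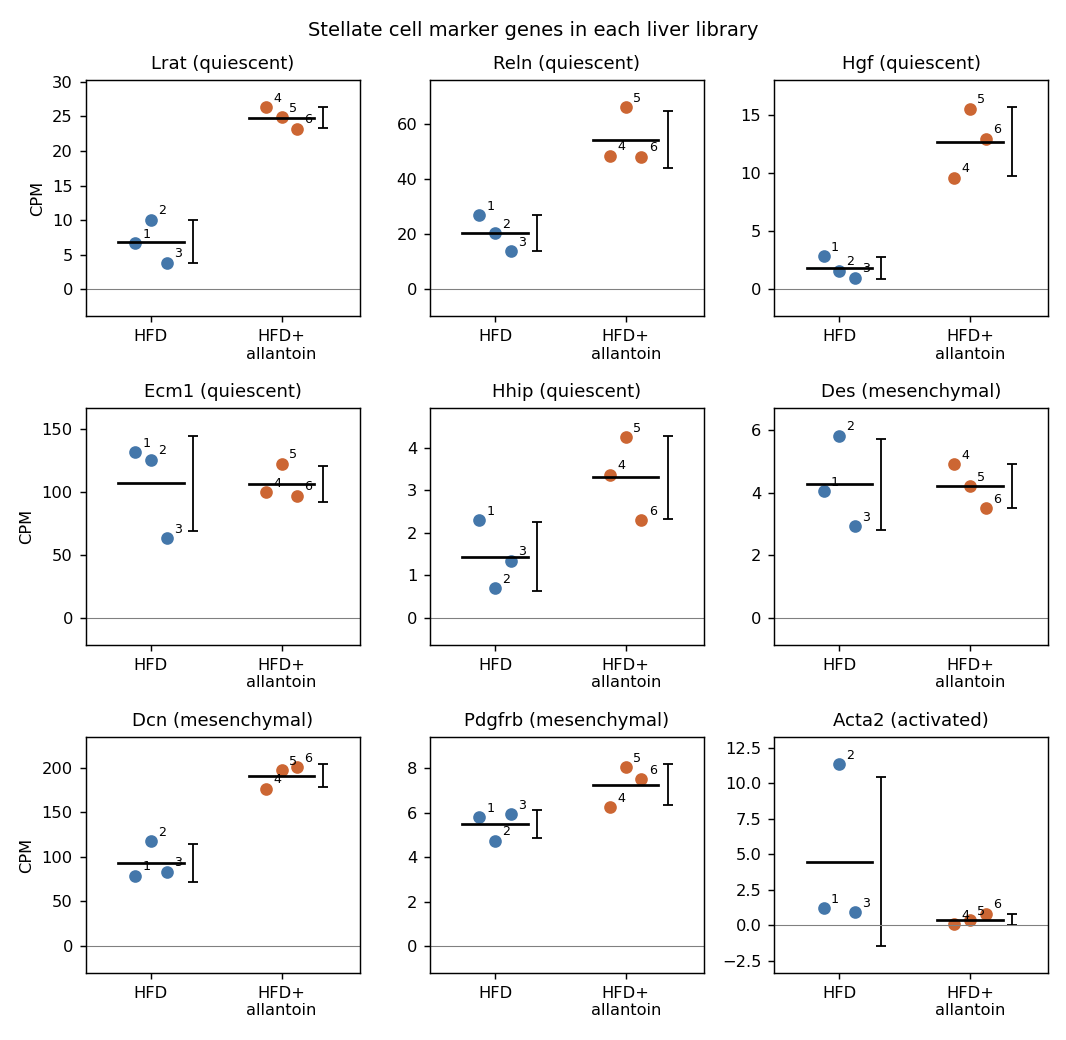
Each panel plots 1 stellate cell marker in CPM on a linear axis, with a point per library numbered by its replicate, a horizontal line at the group mean and a bar of 1 SD to each side (n = 3), which passes 0 for Acta2 in HFD because the SD exceeds the mean. The Lrat points of HFD+allantoin lie at 23.2 to 26.3 CPM, above 3.85 to 10.1 CPM in HFD, and the Acta2 panel shows 1 HFD library at 11.4 CPM above 5 others at or under 1.20 CPM.

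Lrat encodes lecithin retinol acyltransferase, which makes the retinyl esters that stellate cells store. It stood at 6.66, 10.1 and 3.85 CPM in HFD replicates 1 to 3 and at 26.3, 24.9 and 23.2 CPM in HFD+allantoin replicates 4 to 6. The groups did not overlap, and the HFD+allantoin libraries lay close together (24.8 ± 1.55 CPM against 6.86 ± 3.12 CPM, SD, n = 3 each). The log2 fold change was 1.86 (SE 0.31), a 3.63-fold difference with an edgeR adjusted p of 0.00518, and without HFD replicate 2 it was 2.25 (adjusted p = 0.00343).

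Hgf encodes hepatocyte growth factor, the ligand of the Met receptor on hepatocytes. Its level was 2.84, 1.58 and 1.0 CPM in HFD and 9.60, 15.6 and 13.0 CPM in HFD+allantoin. The lowest HFD+allantoin library was above the highest HFD library, and the means were 1.81 ± 0.938 and 12.7 ± 2.99 CPM (SD, n = 3 each). This was the largest rise among the members, 7.13-fold with a 95% interval of 3.89 to 13.1 (log2 2.83, SE 0.39, edgeR adjusted p = 0.00351). Its HFD values rested on 12 to 26 counts per library, and without HFD replicate 2 the log2 fold change was 2.76 (adjusted p = 0.00776).

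Reln encodes reelin, a large secreted glycoprotein known from neuronal migration that quiescent stellate cells also make. HFD libraries held 27.0, 20.3 and 13.9 CPM and HFD+allantoin libraries 48.5, 66.2 and 48.1 CPM. Again the groups were apart (20.4 ± 6.54 and 54.3 ± 10.3 CPM, SD, n = 3 each). Reln rose 2.67-fold (log2 1.41, SE 0.26, edgeR adjusted p = 0.00685), and the log2 value without HFD replicate 2 was 1.42 (adjusted p = 0.0176).

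Hhip encodes the hedgehog-interacting protein, which binds hedgehog ligands and holds back their signal. It was scarce, at 21, 7 and 16 counts in HFD and 46, 72 and 34 in HFD+allantoin, or 2.29, 0.691 and 1.34 against 3.37, 4.26 and 2.29 CPM. The groups met at 2.29 CPM, where HFD replicate 1 and HFD+allantoin replicate 6 were level to 3 digits. The log2 fold change of 1.21 (SE 0.48) gave an edgeR adjusted p of 0.0982, and its 95% interval ran from 0.11 to 2.30. Without HFD replicate 2 the value was 0.88 (adjusted p = 0.203), and without HFD replicate 1 it was 1.68 and passed (adjusted p = 0.0483).

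Ecm1 encodes extracellular matrix protein 1, a secreted protein that is known to keep latent TGF-β inactive in liver and that hepatocytes make as well. It read 132, 126 and 63.0 CPM in HFD and 99.8, 122 and 96.7 CPM in HFD+allantoin. All HFD+allantoin libraries fell within the HFD range, and HFD replicate 3 was the lowest of the 6. The means were 107 ± 38.0 and 106 ± 14.1 CPM (SD, n = 3 each), the fold change had a 95% interval of 0.653 to 1.52, and the edgeR adjusted p was 0.993.

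Dcn encodes decorin, a small proteoglycan that binds collagen fibrils and TGF-β. The libraries stood at 78.7, 118 and 83.2 CPM in HFD and 176, 197 and 200.2 CPM in HFD+allantoin. Every HFD+allantoin library exceeded every HFD library, with means of 191 ± 13 and 93.2 ± 21.4 CPM (SD, n = 3 each). Dcn rose 2.05-fold (log2 1.03, SE 0.19, edgeR adjusted p = 0.00785) and by 1.24 on the log2 scale without HFD replicate 2 (adjusted p = 0.00626).

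Pdgfrb (ENSMUSG00000024620, chr18:61045150-61085061, plus strand) encodes the receptor through which platelet-derived growth factor drives stellate cell growth. It was at 5.79, 4.74 and 5.94 CPM in HFD and 6.23, 8.05 and 7.49 CPM in HFD+allantoin. The groups did not overlap, but HFD+allantoin replicate 4 lay just above HFD replicate 3. The fitted ratio of 1.32 did not pass the test (log2 0.40, SE 0.25, edgeR adjusted p = 0.258). Without HFD replicate 2 the log2 value was 0.31 (adjusted p = 0.431).

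Des encodes desmin, the muscle type intermediate filament used to stain rodent stellate cells. Its libraries read 4.04, 5.83 and 2.93 CPM in HFD and 4.91, 4.20 and 3.51 CPM in HFD+allantoin. The HFD+allantoin values lay inside the HFD range, whose highest was replicate 2. The log2 difference was -0.02 (SE 0.34) with an edgeR adjusted p of 0.979. The 95% interval of the fold change, 0.581 to 1.68, gives the changes that these libraries do not exclude.

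Acta2 encodes smooth muscle α-actin, the hallmark of the activated, contractile stellate cell and of smooth muscle. It had 11, 115 and 11 counts in HFD and 1, 6 and 12 counts in HFD+allantoin, which is 1.20, 11.4 and 0.920 CPM against 0.0733, 0.355 and 0.810 CPM. HFD replicate 2 held most of the HFD counts, and HFD replicate 3 and HFD+allantoin replicate 6 differed by 1 count. The exact Poisson 95% intervals of those libraries, 5.49 to 19.7 and 6.20 to 21 counts, overlapped nearly in full; such intervals cover counting error only.

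With all 6 libraries the Acta2 log2 fold change was -3.40 (SE 1.08, 95% interval -5.83 to -0.96), and the edgeR adjusted p was 0.0484. Without HFD replicate 2 it was -1.32 (SE 0.83, 95% interval -3.23 to 0.59, adjusted p = 0.281), and the HFD mean went from 4.49 to 1.06 CPM against 0.413 CPM in HFD+allantoin. Without HFD+allantoin replicates 4, 5 and 6 in turn the log2 fold change was -2.93, -3.28 and -4.26 (edgeR adjusted p = 0.142, 0.151 and 0.0817), and limma-voom with all libraries gave -2.79 (adjusted p = 0.147). Acta1, the skeletal muscle actin with a closely similar coding sequence, had 46 counts in HFD replicate 2 and 0 or 1 elsewhere, Actg2 had 0 or 1 and Actc1 0 to 4, while the cytoplasmic actins Actb and Actg1 had 4288 to 11166 and 457 to 3961. How reads shared among actins were assigned is not given in the sources used here, so Acta2 values are uncertain on this account.

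**Figure D2:**
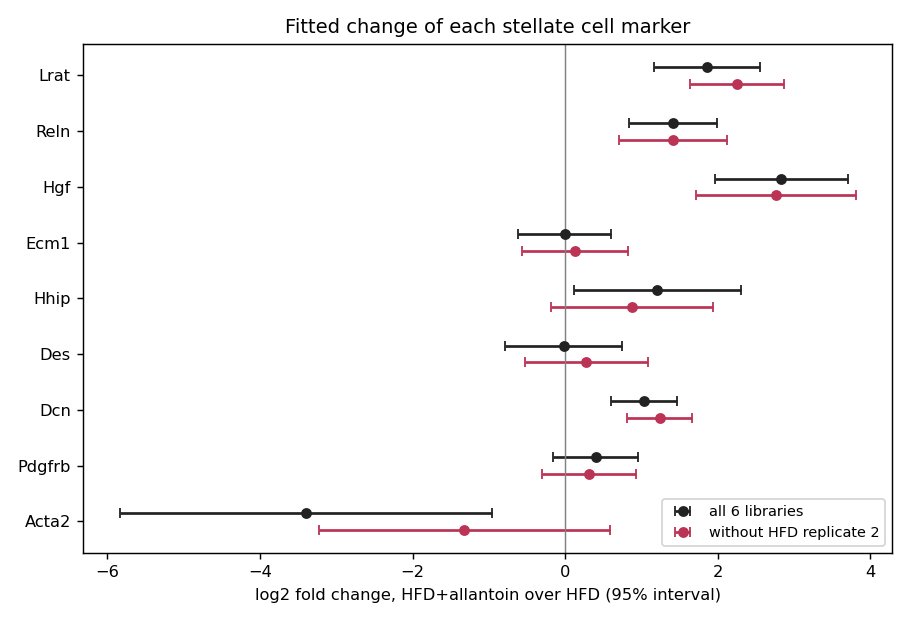
Log2 fold change of each marker, HFD+allantoin over HFD, with 95% intervals from edgeR, in black with all 6 libraries and in red without HFD replicate 2. The intervals of Lrat, Reln, Hgf and Dcn lie above 0 in both fits, and that of Acta2 reaches from -5.83 to -0.96 with all libraries and from -3.23 to 0.59 without HFD replicate 2.

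Without HFD replicate 2 the same 4 members, Lrat, Reln, Hgf and Dcn, were called higher and none lower, and the median was 0.88. In that edgeR fit, 9.83% of 13150 genes were called higher and 12.5% lower, and 0 members were lower at an unadjusted p under 0.05 too. Counted by overlap alone, 6 members (Lrat, Reln, Hgf, Hhip, Dcn and Pdgfrb) had every HFD+allantoin library above every HFD library and 1, Acta2, had every one below, where the shares over all tested genes were 22.4% and 21.9%. Hhip entered that count by a difference under the third digit. With 3 against 3 libraries an exact permutation test cannot go below p = 0.10, so none is given for single genes.

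Set per length, as CPM per kilobase of exon sequence (FPKM), the members spanned a wide range. In HFD the level of Ecm1 was 42.3 ± 15.1 FPKM and of Dcn 16.0 ± 3.67, followed by Acta2 at 2.05 ± 2.71, Lrat at 1.28 ± 0.583, Des at 1.14 ± 0.390, Pdgfrb at 1.0 ± 0.119, Reln at 0.859 ± 0.276, Hgf at 0.252 ± 0.131 and Hhip at 0.159 ± 0.0888 (SD, n = 3). Ecm1 and Dcn were clear of each other and of Acta2, and Reln of Hgf, while neighbours from Acta2 down to Reln overlapped between libraries, and so did Hgf and Hhip. In HFD+allantoin the order was Ecm1 at 42.2 ± 5.58 FPKM, Dcn at 32.7 ± 2.23, Lrat at 4.64 ± 0.290, Reln at 2.29 ± 0.436, Hgf at 1.77 ± 0.415, Pdgfrb at 1.32 ± 0.170, Des at 1.12 ± 0.187, Hhip at 0.365 ± 0.108 and Acta2 at 0.188 ± 0.169. There Ecm1, Dcn, Lrat and Reln were clear of each other and Des was clear of Hhip, while the other neighbours overlapped. Acta2 thus ranked 3rd of the 9 in HFD, 7th when HFD replicate 2 was left out, and 9th in HFD+allantoin.

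Within each library, Lrat was subtracted from each marker on the log2 CPM scale. Reln stood 1.99, 1.0 and 1.81 above Lrat in HFD and 0.88, 1.40 and 1.05 above it in HFD+allantoin. Hgf stood at -1.19, -2.56 and -1.79 against -1.44, -0.67 and -0.83, and Hhip at -1.48, -3.59 and -1.42 against -2.91, -2.50 and -3.25. For these 3 genes the groups overlapped, but for Reln and Hhip only through HFD replicate 2. Without it both were lower against Lrat in every HFD+allantoin library, with mean differences of -0.79 and -1.44 in place of -0.49 and -0.72, and Hgf still overlapped (0.50 in place of 0.86).

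The other members were lower against Lrat in every HFD+allantoin library than in any HFD library. Dcn went from 3.53, 3.53 and 4.38 to 2.74, 2.97 and 3.10, a mean difference of -0.88, although its own level rose. The mean difference was -1.87 for Ecm1, -1.54 for Pdgfrb, -1.91 for Des and -4.34 for Acta2, and without HFD replicate 2 it was -2.04, -1.96, -1.99 and -3.57 in that order. Since Lrat itself rose, a gene that kept its level is lower on this scale.

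**Figure D3:**
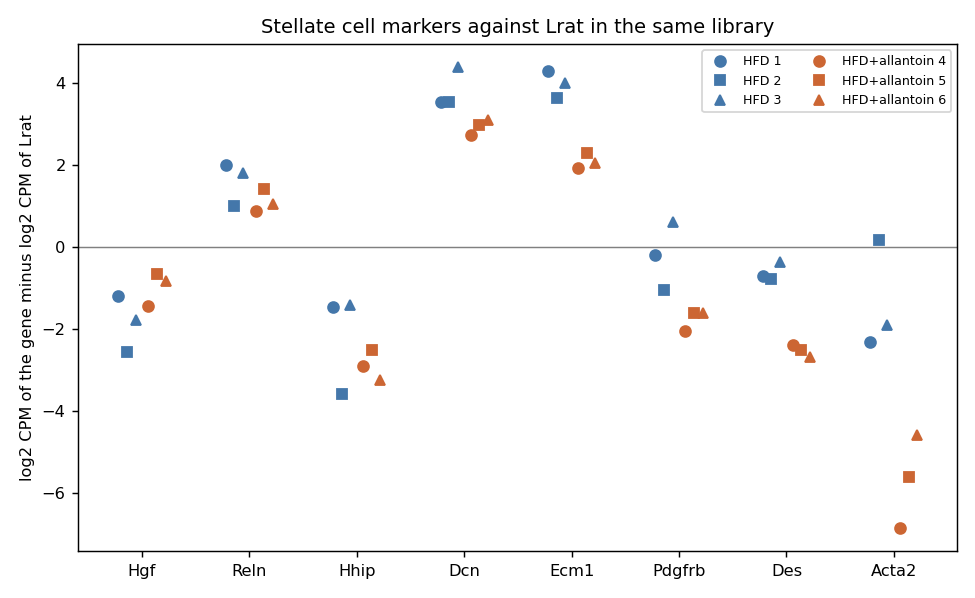
Log2 CPM of each marker minus log2 CPM of Lrat in the same library, with blue symbols for HFD and orange for HFD+allantoin and a shape for each library. Dcn, Ecm1, Pdgfrb, Des and Acta2 are lower in all 3 HFD+allantoin libraries, and Reln and Hhip are too once HFD replicate 2 is set aside, while Hgf overlaps.

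The mean log2 CPM of the 5 quiescent markers minus that of Acta2 gave 3.05, -0.48 and 2.41 in HFD and 6.54, 5.72 and 4.40 in HFD+allantoin. The HFD+allantoin libraries were all higher, with means of 5.55 ± 1.08 and 1.66 ± 1.88 (SD, n = 3 each). The difference was 3.89 on the log2 scale and 2.82 without HFD replicate 2. It depended on Acta2: with Dcn in its place it was 0.43, with Pdgfrb 1.09 and with Des 1.47.

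Other genes of the stellate cell rose beside Lrat in part. Of 25 listed, 23 were tested, and 8 were called higher and 0 lower by edgeR, with 12 and 0 at an unadjusted p under 0.05, 11 and 0 called by DESeq2 and 9 and 0 by limma-voom. Their median was 0.81 on the log2 scale, and without HFD replicate 2 edgeR called 11 of 24 higher and 0 lower, with a median of 1.14. By library size only 13 were higher and 0 lower (median 1.22), where 3162 of all 12795 genes were higher (median 0.38). Colec10, a collectin secreted by stellate cells, stood at 5.57, 8.10 and 5.85 CPM in HFD and 28.3, 32.6 and 28.9 CPM in HFD+allantoin (log2 fold change 2.20, edgeR adjusted p = 0.00148). Its partner Colec11 rose by 0.97, the neurotrophin receptor gene Ngfr by 2.25 and the pericyte gene Rgs5 by 1.39 on the log2 scale. Bmp10 and Gdf2, the genes of circulating BMP ligands that stellate cells make for the endothelium, rose by 3.12 and 1.40. Bmp10 had only 10, 3 and 1 counts in HFD and 51, 86 and 52 in HFD+allantoin, and Ngfr 6, 7 and 20 against 81, 76 and 64. Gfap, another stain for these cells, was at 0 to 0.880 CPM and was not tested.

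For vitamin A handling, 21 of 28 listed genes were tested, 3 were called higher and 2 lower, with a median of -0.08. The share called higher was 14.3%, where 11.3% of all tested genes were called higher and 13.0% lower. By these counts the list lay near the background. Scaled by library size only, 5 were higher and 0 lower (median 0.35), where 3162 of all 12795 genes were higher (median 0.38). Beside Lrat the genes called higher with TMM factors were Rxra, the retinoid X receptor α (0.92), and Aldh1a1, a retinal dehydrogenase (0.75). Aldh1a1 missed the threshold without HFD replicate 2 (edgeR adjusted p = 0.0782). Rarb, a retinoic acid receptor gene, passed it there (edgeR adjusted p = 0.0308), with only 0 and 1 counts in HFD replicates 1 and 3. Ttr, the plasma carrier of retinol-binding protein, fell by 0.79 on the log2 scale and Stra6l, the liver receptor of retinol-binding protein, by 0.64. Retinyl esters were not measured in these files.

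The partners of each signalling member were read from separate lists. Beside Hgf, 13 genes of its list were tested, 4 higher and 1 lower (median 0.22), and the receptor gene Met rose from 56.4 ± 4.26 to 95 ± 16.0 CPM (SD, n = 3 each, log2 fold change 0.75, edgeR adjusted p = 0.0171). The Met adaptor Gab1 rose by 0.76, the phosphatase gene Ptpn11 by 0.67 and Plg, which encodes plasminogen, by 0.76. Spint2, an inhibitor of the proteases that activate HGF, fell by 0.72. Hgfac and Hpn, which encode 2 such proteases, were lower in every HFD+allantoin library but did not pass. Their log2 fold changes were -0.41 and -0.38 (edgeR adjusted p = 0.108 and 0.154). With Hgf counted, DESeq2 called 6 of 14 genes of this list higher and 2 lower. Scaled by library size only, 7 were higher and 0 lower, so the call of Spint2 as lower was absent there. Beside Hhip, 9 hedgehog genes were tested, with 3 higher, 0 lower and a median of -0.04, or 0.26 with Hhip counted. With Hhip counted, DESeq2 and limma-voom also called 3 higher and 0 lower, and edgeR gave 4 and 0 at an unadjusted p under 0.05. These were the receptor gene Ptch1 (1.05) and the co-receptor genes Gas1 (1.16) and Cdon (1.29), and without HFD replicate 2 Cdon did not pass (adjusted p = 0.0961).

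For Reln, 8 genes were tested and 2 were higher, Reln itself and Pafah1b1, a dynein regulator downstream of reelin (0.88), with a median of 0.43. None was lower by edgeR, DESeq2 or limma-voom, and 0 by edgeR at an unadjusted p under 0.05. Beside Pdgfrb, 12 genes were tested, 2 higher and 1 lower (median 0.39), with Ptprj, a phosphatase that acts on the receptor, higher by 1.06, Ptpn11 higher by 0.67, and Nrp1, a co-receptor for several growth factors that endothelium also carries, lower by 1.22. The TGF-β list had 26 tested genes, of which edgeR, DESeq2 and limma-voom each called 6 higher and 0 lower, with 9 and 1 by edgeR at an unadjusted p under 0.05 (median 0.30). By library size only 12 were higher (median 0.73), and without HFD replicate 2 5 of 27 were. The list holds the members Dcn and Ecm1. Of these, Dcn and Bgn (1.20) encode proteoglycans that bind TGF-β, Ltbp4 (1.65) encodes a latent TGF-β binding protein, Tgfbr2 (0.89) a receptor and Smad6 (1.23) an inhibitory SMAD. Tgfb1 itself was at 6.16 ± 1.39 and 7.92 ± 1.17 CPM (SD, n = 3 each, edgeR adjusted p = 0.345).

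Genes of activation and matrix did not move as a block. Of 31 listed, 26 were tested, and 5 were called higher and 1 lower with a median of 0.10. The counts were 6 and 1 by DESeq2 and 3 and 1 by limma-voom. By library size only they were 8 and 0 with a median of 0.49. Without HFD replicate 2 the counts were 6 and 1 with a median of 0.49. Without that library Loxl2 and Col1a1 missed the threshold and Postn (1.43), Mmp2 (1.62) and Sparc (0.83, against -0.23 with it), which encode the matrix proteins periostin and SPARC and a gelatinase, passed it. The higher genes encode the proteoglycans biglycan (Bgn, 1.20) and lumican (Lum, 2.0), the protease inhibitor TIMP2 (Timp2, 1.58), the collagen cross-linking enzyme LOXL2 (Loxl2, 1.54) and type I collagen (Col1a1). Mmp14, the membrane-type matrix metalloproteinase, fell by 0.91. Col1a1 stood at 6.0, 7.60 and 9.95 CPM in HFD and 10.8, 13.4 and 22.2 CPM in HFD+allantoin (log2 fold change 0.97, edgeR adjusted p = 0.0491), and without HFD replicate 2 the adjusted p was 0.0991. Col1a2 was at 13.3 ± 4.07 and 18 ± 5.17 CPM and Col3a1 at 27.8 ± 7.60 and 36.8 ± 16.1 CPM (SD, n = 3 each), and neither passed (edgeR adjusted p = 0.281 and 0.374). Timp1 was at 0.109 to 1.17 CPM in HFD and 0.237 to 1.32 CPM in HFD+allantoin.

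**Figure D4:**
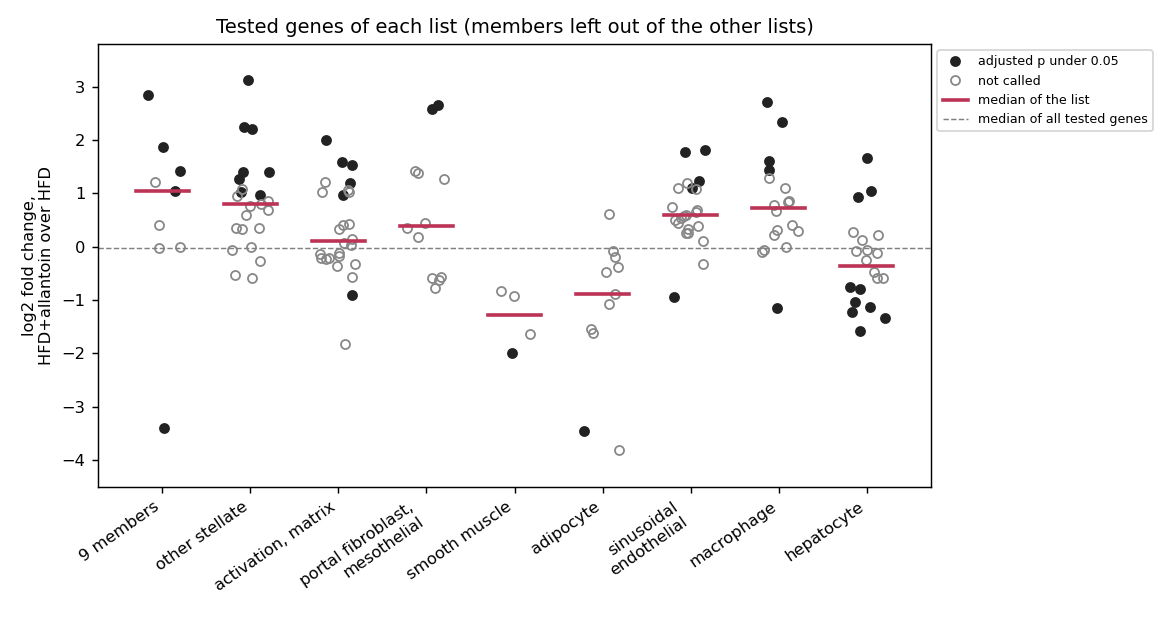
Log2 fold change, HFD+allantoin over HFD, of every tested gene in 9 lists, 1 point a gene with the members shown in their own column only, filled where the edgeR adjusted p was under 0.05, with a red line at the median of the list and a dashed line at -0.03, the median of all tested genes. The members' median is 1.03 and that of the other stellate genes 0.81, while activation and matrix genes centre at 0.10 with points on both sides.

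Cells that share markers with stellate cells were checked in the same libraries. Smooth muscle genes were scarce, with Cnn1 and Actg2 at 0 or 1 count and Myh11 at 8 to 21. Of 14 listed, 6 were tested, and Acta2 and Ppp1r14a, an inhibitor of myosin phosphatase (log2 fold change -2.0), were lower, with a median of -1.27 (also over the 4 that are no members). Without HFD replicate 2 neither was called by edgeR, 1 gene of the list was lower at an unadjusted p under 0.05, and the median was -0.63. limma-voom with all libraries called 0 of the 6. The summed level of the list without Acta2 and Des was 12.4 to 34.9 CPM in HFD and 5.68 to 8.57 CPM in HFD+allantoin, and its part in the Acta2 result was not tested. Of the portal fibroblast and mesothelial list, 12 of 19 were tested and 2 were called higher, with a median of 0.39 and 0 lower by edgeR at an adjusted or unadjusted p under 0.05. The median was 1.02 over 13 genes without HFD replicate 2, where Upk1b missed the threshold (edgeR adjusted p = 0.0985) and Fbn1, the fibrillin-1 gene, passed it (log2 fold change 2.33, adjusted p = 0.0126). The 2 called with all libraries, Upk3b (2.65) and Upk1b (2.59), encode uroplakins found in mesothelium. Their HFD libraries held only 2 to 21 and 0 to 4 counts. The defining fibroblast genes Thy1 and Cd34 were at 5 to 29 and 11 to 35 counts.

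Fat cell genes were read as a check on HFD replicate 2. Of 18 listed, 11 were tested, and 0 were higher by edgeR at an adjusted or unadjusted p under 0.05. Called lower was 1, the adrenergic receptor gene Adrb3 (log2 fold change -3.46), and the median was -0.89. Adrb3 had 311, 284 and 145 counts in HFD replicates 1 to 3 and 30, 36 and 35 in HFD+allantoin. Without HFD replicate 2 the median was -0.12, and edgeR called 1 gene higher and 1 lower. The lower gene was again Adrb3 (-3.36, edgeR adjusted p = 0.00372). The summed level without Car3, which the liver expresses, was 322 to 1322 CPM in HFD and 280 to 396 CPM in HFD+allantoin. In HFD replicate 2 the Acta2, Acta1 and Adipoq counts were all the highest of the 6 libraries, and the Lrat, Des and Dcn levels were the highest of the HFD group. The part of fat tissue in those values was not tested.

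The cells beside the stellate cell were read in the same way, and no gene of either list was at 0 in every library. Of 22 sinusoidal endothelial genes, all tested, 4 were higher and 1 lower (median 0.59). The counts were 10 and 1 without HFD replicate 2 (median 0.94), by library size only 12 and 0 (median 1.01) and by DESeq2 8 and 1. Dnase1l3 (1.23) and the water channel gene Aqp1 (1.77) rose, and Stab1, a scavenger receptor gene, fell by 0.94 on the log2 scale. Stab2 (0.10) and Clec4g (0.26) did not pass, with all libraries or without HFD replicate 2. Of 20 Kupffer cell and macrophage genes, 18 were tested, 4 higher and 1 lower (median 0.72), with 8 and 1 of 19 without HFD replicate 2 (median 0.96) and 7 and 0 by library size only (median 1.11). Adgre1, which encodes F4/80, stood at 3.13 ± 0.576 and 20.6 ± 2.36 CPM (SD, n = 3 each, log2 fold change 2.71, edgeR adjusted p = 0.00106). In the same list Vsig4, Cd5l and Folr2 were called higher too (edgeR adjusted p = 0.0186, 0.0164 and 0.0283). Folr2 had only 4, 5 and 2 counts in HFD and 30, 15 and 37 in HFD+allantoin. Cd9 was called lower (edgeR adjusted p = 0.0295). The log2 fold changes of Clec4f (0.29), Timd4 (-0.10), Cd68 (-0.01) and C1qa (-0.06) did not pass. Without HFD replicate 2 Clec4f did (0.74, edgeR adjusted p = 0.0217). The summed level of the endothelial list was 238 to 466 CPM in HFD and 426 to 651 CPM in HFD+allantoin, and that of the macrophage list 288 to 574 against 665 to 747 CPM. These levels moved with the members, and their part in the members' result was not tested.

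Hepatocyte genes went both ways, with 3 of 20 higher and 7 lower and a median of -0.36. That median was 0.049 when libraries were scaled by their size only, and without HFD replicate 2 the counts were 1 and 6 (median -0.21), since Apob, Cps1 and Arg1 missed the threshold. Among 7 tested cholangiocyte genes 1 was lower, Sox9 (-3.17), with a median of -0.35, or 0.10 by library size only. Of 10 tested blood genes, Ppbp, a platelet chemokine gene, was lower (-2.83), with a median of -0.56. Skeletal muscle genes were at 0 in every library for 6 of 12, and the only one tested, Tmod4, was called lower, at 21, 25 and 35 counts in HFD and 1, 0 and 1 in HFD+allantoin.

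Fold changes varied with gene length over the whole table. The median log2 fold change was -0.51 in the tenth of genes with the shortest exon sequence, -0.18 in the tenth that held Acta2, 0.06 in the tenth that held Lrat, Dcn and Pdgfrb and 0.12 in that of Reln. With each library's trend in exon length and GC content removed, Lrat, Reln, Hgf and Dcn were still called higher, Dcn at 0.86, and Acta2 stood at -3.32 (edgeR adjusted p = 0.0533).

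Across the 6 libraries, the genes whose log2 CPM ran most like that of Lrat, among 11159 genes, were Smad5 (Pearson r = 0.999), Wfdc1 (0.995), Calcrl (0.995), Dclk3 (0.994) and Flii (0.992). For Acta2 they were Nudt2 (0.992), Scamp2 (0.978), Psat1 (0.970), Plcb2 (0.966) and Slc1a5 (0.965). A value of r above 0.9 was reached by 613 genes for Lrat and 56 for Acta2. The 6 points share the group split, and those for Acta2 also share the high value of HFD replicate 2, so these are descriptions with no test.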

How the data were processed

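Liver RNA was purified with an RNeasy kit and sequenced from SMARTER mRNA-Seq libraries. The authors deposited raw read counts per gene, assigned against GRCm38 (mm10) per the submitters' processing notes. Aligner, counter and strand setting are not given in the sources used here. Among 54961 entries, 429 had no Ensembl identifier and stayed out (0.197% to 0.306% of counts). Symbols, positions and exon lengths came from GENCODE M21, which held 54495 identifiers and lacked 37.

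Groups were compared with edgeR 4.0.16 (R 4.3.3): TMM factors, filterByExpr, quasi-likelihood test, Benjamini-Hochberg adjustment over 12795 genes. The SE came from the F statistic, and per-library log2 CPM used a prior count of 2. The labels do not say that libraries came from separate mice, so p-values measure the spread between libraries. Replicates differed beyond sampling noise.

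All 9 members are named, with at most 5 called genes of smallest p and 3 defining markers per companion list (17 lists). Some genes outside that rule (Gfap, Tgfb1, Rarb, Fbn1, Postn, Mmp2, Sparc, Apob, Cps1, Arg1, Col1a2, Col3a1, Timp1, Clec4g, Timd4, Cd68, C1qa, Hgfac, Hpn) and the actin paralogs were named after their values were seen. Members and lists were chosen with earlier results of these data known. Alternatives were RLE, upper quartile and library size scaling, DESeq2 1.42.0, limma-voom (limma 3.58.1), other filters and prior counts, no mitochondrial genes and each library left out. Removal of length and GC trends was added after seeing the data. The procedure was tested on simulated data. A gene withheld for evaluation is not reported here.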

Additional observations from a re-analysis of the deposited data

How the results depend on the processing

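No paired analysis was possible because the groups share no replicate number (1 to 3 against 4 to 6). Of 87 alternative values of the counts, the medians and the quiescent minus activated difference, 67 stayed close, that is, counts within 1.5 times and the others within 1 SD between replicates. Members called higher numbered 4 to 6. Lrat, Reln, Hgf and Dcn were called higher in all 16 alternatives, with log2 fold changes of 1.57 to 2.29, 1.20 to 1.86, 2.53 to 3.30 and 0.86 to 1.44 and highest adjusted p values of 0.0325, 0.0383, 0.0293 and 0.0423.

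The count of members called lower, 1 in the 6-library edgeR fit, was 0 with limma-voom (Acta2 -2.79, adjusted p = 0.147), with library size only (-3.03, 0.0528), after removal of length and GC trends, and with at least 10 counts in every library, where Acta2 and Hhip were not tested. Leaving out 1 library gave 0 to 1: Acta2 missed the threshold without HFD replicate 2 and without HFD+allantoin replicate 4 (-2.93, 0.142), 5 (-3.28, 0.151) or 6 (-4.26, 0.0817).

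Library size only moved the median of all genes by 0.41, to 3162 genes higher and 674 lower, and the members' median to 1.44. Hhip at 1.66 (adjusted p = 0.0244) and Pdgfrb at 0.82 (0.0380) were called there. Hhip was also called without HFD replicate 1 (1.68, 0.0483). Leaving out 1 library gave 460 to 1773 genes higher and 564 to 2008 lower, the lowest counts without HFD+allantoin replicate 5.

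The quiescent minus activated difference was 0.43 with Dcn in place of Acta2, 1.47 with Des and 1.09 with Pdgfrb. Des and Ecm1, at -0.02 and -0.00, changed sign and stayed uncalled: Des was 0.050 after removal of length and GC trends, 0.41 with library size only, 0.035 with limma-voom, 0.023 with no filter and -0.23 to 0.28 with 1 library left out, and Ecm1 was 0.25, 0.44, 0.061, 0.038 and -0.27 to 0.17 in that order and 0.0072 with at least 10 counts in every library. The cause was not tested. Among the members, depth limits Acta2, Hhip and Hgf, whose libraries hold 1 to 115, 7 to 72 and 12 to 263 counts. Outside them it limits Bmp10, Ngfr, Rarb, Upk1b and Upk3b, among others.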
